A study of Macaca mulatta with 39 samples.

Results

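MEST, H19 and IGF2 are imprinted genes whose RNA levels are described here in rhesus macaque embryonic stem cells (ESCs), in fibroblasts grown from teratomas and in skin fibroblasts. All probe sets that name MEST, H19 or IGF2 alone were taken, which gave 5 of the 24956 probe sets that name a single gene, and 3 of 14132 genes. MEST is read by probe set MmugDNA.41111.1.S1_at and lies on rhesus chromosome 3. H19 is read by 3 probe sets, MmuAffx.23.13.S1_s_at, Mmu.16030.2.S1_a_at and MmugDNA.16224.1.S1_s_at, and IGF2 by Mmu.3675.1.S1_at, and both genes lie on chromosome 14. Probe sets ending in _s_at or _a_at can match more than a single transcript. The genes were chosen by their names and selected on their measured levels in these arrays, namely their spread among the teratoma and the skin cultures, which were known beforehand. Their levels and differences are therefore given as a description, with errors and without p-values.

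An imprinted gene is transcribed from the copy inherited from a given parent, and methylation set in the germ line marks which copy that is. MEST is transcribed from the paternal copy and encodes a protein of the alpha/beta hydrolase fold, known for its high level in embryonic mesoderm. H19 is a noncoding RNA made from the maternal copy. IGF2, a fetal growth factor, is made from the paternal copy of the neighbouring gene. H19 and IGF2 share enhancers, and a control region between them, bound by CTCF on the maternal copy, keeps those enhancers from reaching IGF2 there.

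The ESCs were of 2 lines, male (C3106) and female (C3806), each line standing alone for its sex. The teratoma fibroblasts were grown out of tumours that these lines formed in immune-compromised mice, 5 cultures from line 3106 (TA31, TB31, TC31, TD31 and TE31) and 3 from line 3806 (TA38, TB38 and TC38). The skin fibroblasts M032, M088 and M106p1 came from macaques that were parents of the lines, and the labels do not pair these animals with the lines. Each of the 13 sources was measured on 3 arrays, whose letters only name the samples. The labels name no treatment, and mouse cells that may remain in a teratoma culture were not measured.

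The array labelled M106p1f correlated at -0.25 with the other arrays of M106p1 and at 0.96 with TD31, over profiles centred by gene. The array labelled C3806c correlated at -0.20 with its own source and at 0.90 with TC38. The array labelled TB31c correlated at -0.11 with its own source and at 0.96 with M106p1. These 3 arrays were left out, and 36 were used. Of these, 33 correlated best with their own source and the other 3, all of ESCs, with the other ESC line. Array medians ran from 6.25 to 6.48 on the log2 scale. The table carries no detection calls, so a low signal cannot be told from background.

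Most pluripotency and fibroblast matrix genes matched the labels of the used arrays. Over all 14132 genes, limma called 6.28% higher and 8.17% lower in ESCs than in teratoma fibroblasts, and 10.2% higher and 9.76% lower in ESCs than in skin fibroblasts, at an adjusted p under 0.05 and a log2 difference of at least 1. Of 9 measured pluripotency genes, 8 were higher in ESCs than in either kind of fibroblast, POU5F1 by 8.14 against teratoma fibroblasts, and NANOG was called lower (-1.25 and -1.21). Of 10 fibroblast matrix genes, 7 were lower in ESCs in both comparisons, the proteoglycan gene LUM by -9.13 and -8.89. The mean level of the matrix list was 11.26 to 11.64 in all 11 fibroblast cultures and 6.97 to 6.98 in the ESCs. Single marker genes were high in some teratoma cultures. SOX2 was 4.78 to 10.90 there and 4.33 to 4.55 in skin. The neural gene PAX6 was 5.25 to 11.05 against 4.54 to 4.97, and the keratinocyte gene DSP 4.12 to 12.84 against 4.96 to 6.14. The other measured keratinocyte genes, KRT1, TP63 and DSG3, were 5.21 to 6.93 in teratoma cultures. STMN2, also neural, was lower in teratoma than in skin by -2.50. The cell types in the cultures were not tested. These lists and those below were drawn up with earlier results of these data known.

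MEST was high in ESCs and in every teratoma culture and low in every skin culture. In C3106 its signal was 11.51, 11.62 and 11.39, and in C3806 it was 11.74 and 11.58. The ESC lines overlapped. The skin cultures gave 5.56, 5.35 and 5.22 in M032, 7.87, 7.90 and 7.57 in M088, and 6.32 and 5.95 in M106p1. Every skin array lay below every ESC and teratoma array, and no skin culture overlapped another. Among the teratoma cultures of line 3106 the signal was 12.42, 12.35 and 12.36 in TA31, 12.37 and 12.36 in TB31, and 11.35, 11.34 and 11.24 in TC31. It was 11.58, 11.89 and 11.68 in TD31 and 10.55, 10.44 and 10.38 in TE31, the lowest of all teratoma cultures. In line 3806 it was 12.52, 12.46 and 12.59 in TA38, 12.86, 12.85 and 12.72 in TB38, and 12.99, 12.85 and 12.88 in TC38. The 9 arrays of line 3806 teratoma cultures all lay above the 14 of line 3106.

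**Figure D1:**
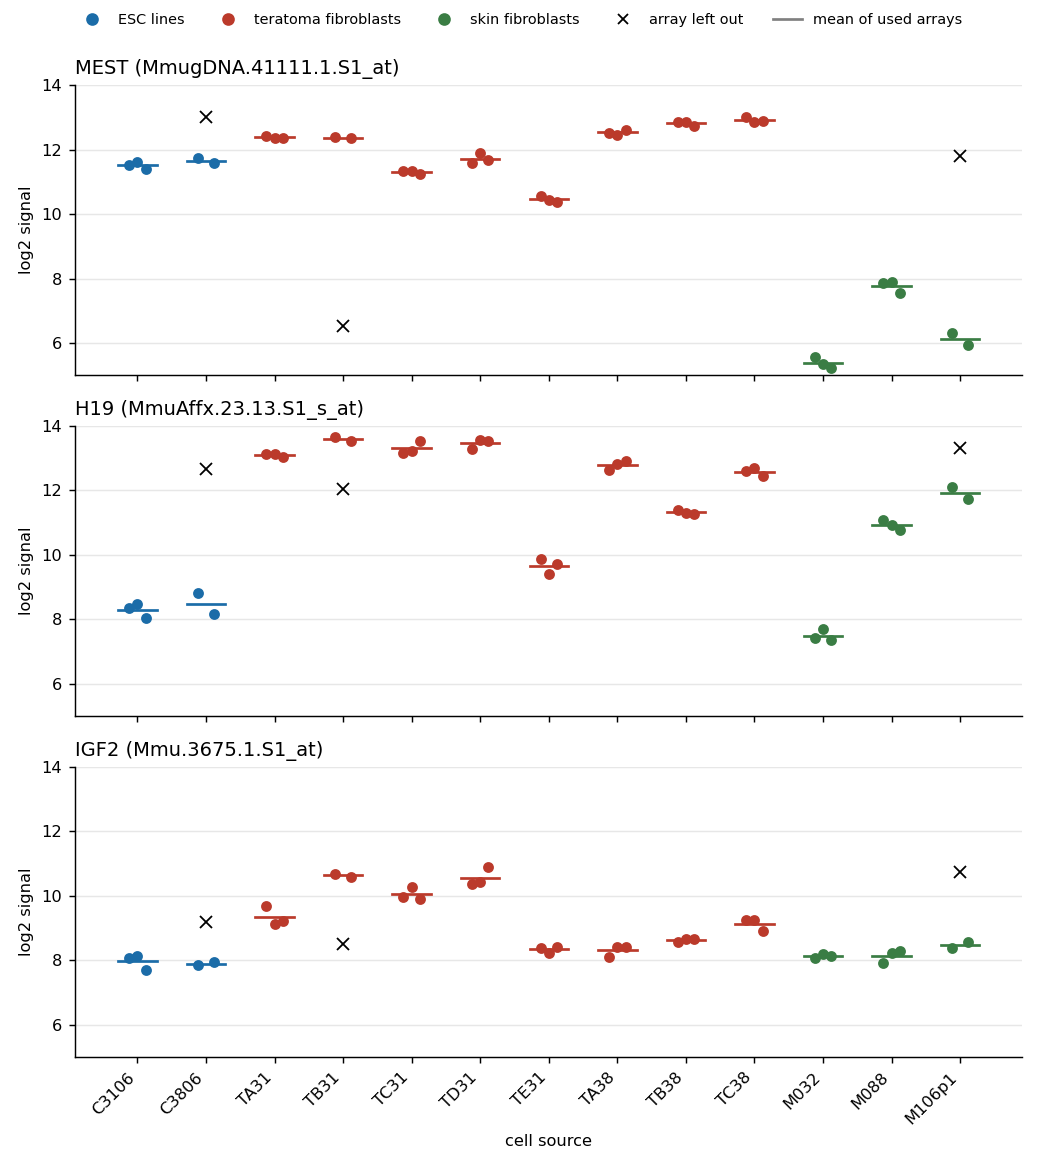
Log2 signal of MEST, H19 (brightest probe set) and IGF2 by cell source, with each used array as a point, the source mean as a line and the 3 arrays that were left out as crosses. MEST separates the skin cultures, at 5.22 to 7.90, from all other sources, while H19 and IGF2 vary among the teratoma cultures.

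The order of the MEST source means ran TC38, TB38, TA38, TA31, TB31, TD31, C3806, C3106, TC31, TE31, M088, M106p1 and M032. Of the 12 neighbouring pairs in that order, 4 had arrays that overlapped, namely TC38 with TB38, TA31 with TB31, TD31 with C3806, and C3806 with C3106. The ESC lines lay below 6 of the teratoma cultures and above TC31 and TE31. The teratoma cultures averaged 12.06 ± 0.84 (SD, n = 8 cultures), with 12.75 ± 0.20 for the 3 of line 3806 and 11.65 ± 0.81 for the 5 of line 3106. The skin cultures averaged 6.43 ± 1.23 (n = 3) and the ESC lines 11.58 ± 0.11 (n = 2).

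With the teratoma cultures of each line as a class of their own, MEST was 5.77 (SE 0.52) higher in teratoma than in skin fibroblasts on the log2 scale. The means of M032 and M106p1, 5.38 and 6.14, lay below the lowest array median of 6.25, where a low signal cannot be told from background, so no fold is given. It was 5.15 (SE 0.69) higher in ESCs than in skin fibroblasts. Between ESCs and teratoma fibroblasts the difference was -0.61 with an SE of 0.60, and the arrays of these classes overlapped. In bulk RNA such as this, fewer cells that make a transcript and less of it per cell cannot be told apart. The source means spanned 2.45 over teratoma cultures and 2.40 over skin cultures, against a median SD between arrays of a source of 0.07 and 0.19. Without TE31 the teratoma span was 1.60, and without M088 the skin span was 0.76.

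H19 was lowest in ESCs and in M032 and highest in the teratoma cultures of line 3106 other than TE31. On its brightest probe set, MmuAffx.23.13.S1_s_at, the ESC arrays gave 8.35, 8.48 and 8.04 in C3106 and 8.81 and 8.18 in C3806. The skin cultures did not resemble each other. M032 gave 7.42, 7.70 and 7.37, M088 gave 11.07, 10.91 and 10.78, and M106p1 gave 12.09 and 11.73. M032 lay below the ESC lines, while M088 and M106p1 lay among the teratoma cultures.

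In line 3106 the H19 signal was 13.11, 13.13 and 13.03 in TA31, 13.64 and 13.51 in TB31, and 13.16, 13.21 and 13.51 in TC31. It was 13.27, 13.57 and 13.51 in TD31, but 9.86, 9.42 and 9.73 in TE31. TE31 thus stood apart from the other 4 cultures of its line. In line 3806 the signal was 12.63, 12.81 and 12.91 in TA38, 11.38, 11.29 and 11.28 in TB38, and 12.60, 12.68 and 12.45 in TC38. TB38 was the lowest of line 3806, and its arrays did not overlap those of the other two.

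The H19 source means ran, from the highest, TB31, TD31, TC31, TA31, TA38, TC38, M106p1, TB38, M088, TE31, C3806, C3106 and M032. Overlapping neighbours were TB31 with TD31, TD31 with TC31, TA38 with TC38, and C3806 with C3106, which is 4 of 12 pairs. The teratoma cultures averaged 12.47 ± 1.34 (SD, n = 8), the skin cultures 10.11 ± 2.32 (n = 3) and the ESC lines 8.39 ± 0.14 (n = 2). On this probe set every teratoma array lay above every ESC array, and the fitted difference of ESCs from teratoma fibroblasts was -4.03 (SE 1.21). ESCs differed from skin fibroblasts by -1.72 (SE 1.39) and teratoma from skin fibroblasts by 2.31 (SE 1.04), and the arrays overlapped in both comparisons. Without M032 the teratoma difference from skin was 1.01.

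On the brightest probe set the span of H19 source means was 3.91 over the 8 teratoma cultures, a 15-fold difference between TB31 and TE31. Over the skin cultures it was 4.41, a 21.3-fold difference between M106p1 and M032. This skin difference was 4.47-fold on MmugDNA.16224.1.S1_s_at and 1.8-fold on Mmu.16030.2.S1_a_at. On the brightest probe set a single low culture widened each span, that of skin the most. Without TE31 the teratoma span was still 2.26, between TB31 and TB38, and without M032 the skin span was 0.99. Between arrays of a source the median SD was 0.13 in teratoma and 0.18 in skin cultures.

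The other H19 probe sets kept the order of the teratoma cultures and compressed the skin cultures. On MmugDNA.16224.1.S1_s_at the arrays of TE31 gave 8.43, 8.25 and 8.43, those of TB38 9.42, 9.14 and 9.46, and those of TB31 12.38 and 12.28. The other teratoma cultures had means from 10.62 in TC38 to 12.03 in TD31. M032 gave 7.83, 7.95 and 7.90 on it, M088 9.23, 8.84 and 8.79, M106p1 10.21 and 9.89, C3106 8.12, 8.39 and 7.97, and C3806 7.74 and 8.01. The mean of TE31 was 0.21 above that of C3106, and their arrays overlapped.

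On Mmu.16030.2.S1_a_at the H19 signal was 10.82 and 10.61 in TB31, 10.37, 9.82 and 10.34 in TD31, and 7.11, 6.49 and 6.68 in TE31. The remaining teratoma cultures had means from 7.36 in TB38 to 9.40 in TC31. M032 gave 6.46, 6.89 and 6.94 on this probe set, M088 7.22, 6.97 and 7.03, and M106p1 7.72 and 7.53. C3106 gave 6.51, 6.47 and 6.84 and C3806 6.19 and 6.85, so that the arrays of TE31, M032 and the ESC lines overlapped on it.

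Over the 8 teratoma cultures all 3 H19 probe sets gave the same order (Spearman's rho of 1.0 for each pair), and their spans were 3.91, 3.96 and 3.96. Over the skin cultures the spans were 4.41 on MmuAffx.23.13.S1_s_at, 2.16 on MmugDNA.16224.1.S1_s_at and 0.86 on Mmu.16030.2.S1_a_at, with M032 lowest and M106p1 highest on each. The difference of ESCs from teratoma fibroblasts was -4.03, -2.72 and -2.04 on the same sets, and on the dimmer 2 some ESC and teratoma arrays overlapped. The direction was the same on all 3, and the size depended on the probe set.

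**Figure D2:**
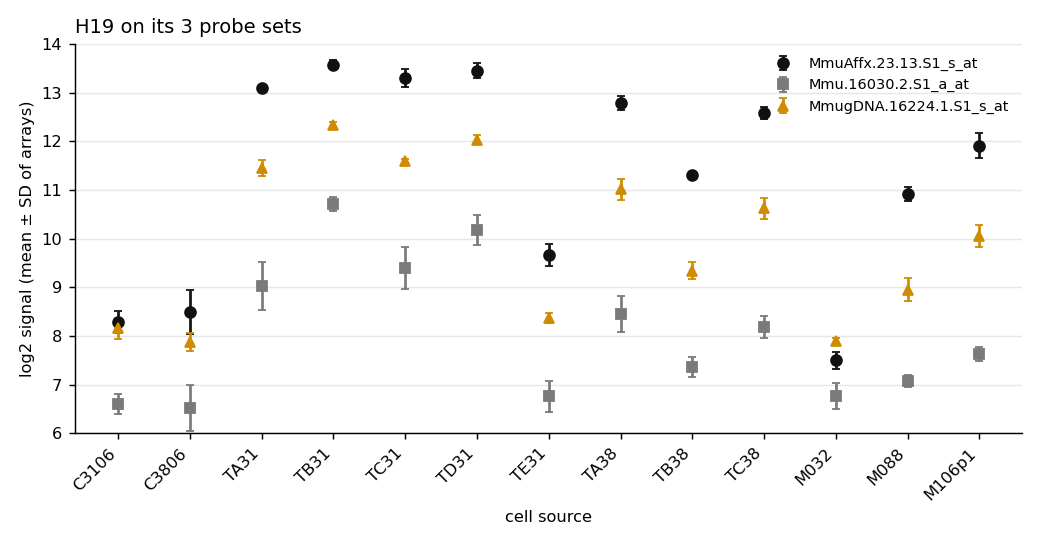
Mean log2 signal of H19 on its 3 probe sets by cell source, with error bars of 1 SD between the arrays of a source. All 3 put TE31 lowest and TB31 highest among the teratoma cultures, and the skin cultures lie closest together on Mmu.16030.2.S1_a_at.

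IGF2 was highest in 4 of the 5 teratoma cultures of line 3106, and its source means in all other sources lay between 7.90 and 9.14. Its signal was 8.07, 8.12 and 7.70 in C3106 and 7.85 and 7.94 in C3806. The skin cultures gave 8.07, 8.19 and 8.15 in M032, 7.92, 8.22 and 8.28 in M088, and 8.38 and 8.56 in M106p1. Skin and ESC arrays overlapped, and the skin source means spanned 0.34, or 0.0050 without M106p1.

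In the teratoma cultures of line 3106 the IGF2 signal was 9.67, 9.14 and 9.23 in TA31, 10.69 and 10.57 in TB31, 9.96, 10.28 and 9.89 in TC31, and 10.35, 10.43 and 10.88 in TD31. TE31, with 8.39, 8.21 and 8.42, overlapped the skin cultures. In line 3806 it was 8.10, 8.41 and 8.42 in TA38, 8.58, 8.67 and 8.67 in TB38, and 9.26, 9.25 and 8.90 in TC38. TA38, which had the highest H19 of line 3806, had its lowest IGF2.

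The IGF2 order ran TB31, TD31, TC31, TA31, TC38, TB38, M106p1, TE31, TA38, M088, M032, C3106 and C3806. Of its 12 neighbouring pairs, 8 had overlapping arrays, among them all 6 from M106p1 down. The teratoma cultures averaged 9.37 ± 0.94 (SD, n = 8) and spanned 2.32, a 4.99-fold difference, against a median SD between arrays of 0.19. ESCs differed from teratoma fibroblasts by -1.31 (SE 0.51) and from skin fibroblasts by -0.32 (SE 0.59). Teratoma fibroblasts were 0.99 (SE 0.44) above skin fibroblasts, with overlapping arrays.

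Each teratoma culture can be set against the ESC line it came from. For MEST the difference was 0.87 in TA31, 0.86 in TB31, 0.21 in TD31, -0.20 in TC31 and -1.05 in TE31. It was 0.87 in TA38, 1.15 in TB38 and 1.25 in TC38, so that cultures lay on both sides of line C3106 and all 3 of line 3806 lay above C3806. For H19, on the brightest probe set, all 8 cultures were above their own line, from 1.38 in TE31 to 5.28 in TB31. For IGF2 all 8 were above it as well, from 0.37 in TE31 to 2.67 in TB31. TE31 gave the smallest value for each of the 3 genes.

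Among the teratoma cultures high H19 went with high IGF2, with TA38 as an exception, and the rank coefficients of MEST with both were below 0 among the teratoma cultures. Over the 13 source means, Pearson's r was 0.78 and Spearman's rho 0.91 between H19 (brightest probe set) and IGF2. Over the 8 teratoma cultures the values were 0.73 and 0.86. Over the 3 skin cultures H19 spanned 4.41 on this probe set and IGF2 0.34. M032 and M088 had an IGF2 mean of 8.14 each at H19 means of 7.50 and 10.92. The ESC lines had IGF2 means of 7.96 and 7.90, and without detection calls such levels cannot be told from background. The skin span of H19 was 2.16 on MmugDNA.16224.1.S1_s_at and 0.86 on Mmu.16030.2.S1_a_at. Over the 13 sources Pearson's r with IGF2 was 0.88 and 0.95 on these, and Spearman's rho 0.92 and 0.91. The size of Pearson's r thus depended on the probe set, while the rank coefficient was similar on each. Between MEST and H19 (brightest probe set) r and rho were 0.45 and 0.47 over the 13 sources, and 0.44 and -0.21 over the teratoma cultures. Between MEST and IGF2 over the teratoma cultures they were -0.02 and -0.26. These are descriptions over sources that share 2 ESC lines and came from 3 cell classes, and the values of all genes in a source come from the same arrays.

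**Figure D3:**
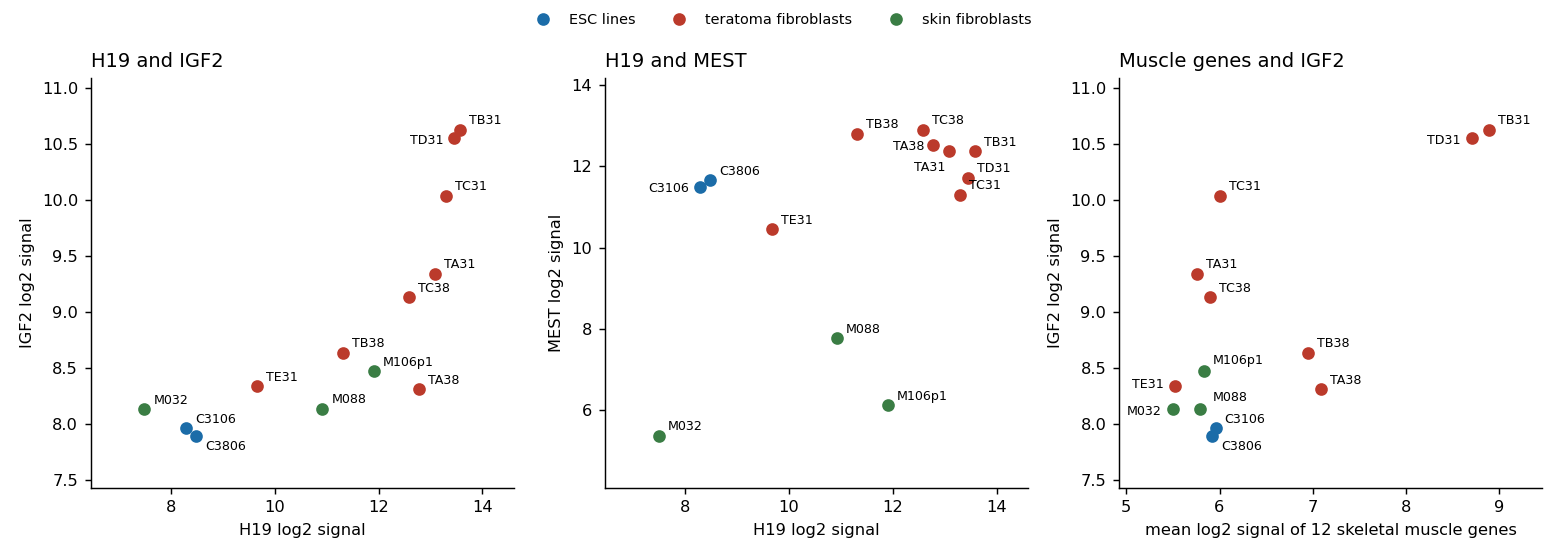
Source means (log2) of H19 (brightest probe set) against IGF2, of H19 against MEST, and of a 12-gene skeletal muscle list against IGF2, with each of the 13 sources labelled. The teratoma cultures with the highest H19 have the highest IGF2. The skin cultures differ in H19 at nearly the same IGF2, and by less on the other H19 probe sets. Their low IGF2 signal cannot be told from background. MEST sets the skin cultures apart at any H19 level, and TB31 and TD31 have both the highest IGF2 and the highest muscle signal.

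Skeletal muscle genes varied strongly among the teratoma cultures. The mean level of 12 measured muscle genes was 8.89 in TB31 and 8.71 in TD31, the cultures with the highest H19 and IGF2. It was 7.09 in TA38, 6.95 in TB38, 6.0 in TC31, 5.90 in TC38, 5.76 in TA31 and 5.52 in TE31, and the summed level was 66.2 to 106.6 in teratoma, 66.0 to 70.0 in skin and 71.0 to 71.5 in ESC sources. Among the cultures of line 3106, 10 of the 12 were called by a limma F test on arrays, where 11.6% of all genes were. MYH3, the embryonic myosin heavy chain, spanned 7.74 there, and the myogenic factor MYF5 spanned 5.87. TC31 and TA31 had H19 means of 13.30 and 13.09 at muscle levels of 6.0 and 5.76, close to the 5.52 of TE31. The part of muscle genes in the IGF2 and H19 differences was not tested.

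Proliferation genes differed among the used arrays of the skin cultures. Their mean level was 8.07 in M106p1, 9.77 in M032 and 9.96 in M088, and the summed level of the 7 genes was 56.5 to 69.7 in skin, 69.5 to 73.8 in teratoma and 77.8 to 78.9 in ESC sources. All 7 were called among skin cultures, where 8.77% of all genes were, but only 1 of the 7 with all 39 arrays. M106p1, with the lowest proliferation level, had the highest H19 of the skin cultures and a MEST level between the other two. The part of proliferation in these levels was not tested.

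With all 39 arrays taken at their labels, MEST in teratoma exceeded skin fibroblasts by 4.94 in place of 5.77, and ESCs differed from teratoma fibroblasts by -0.20. H19 in ESCs differed from teratoma fibroblasts by -3.28, and IGF2 in teratoma exceeded skin by 0.67. The skin span of IGF2 was then 1.09 in place of 0.34, since the array labelled M106p1f carries 10.74. The array labelled TB31c carries a MEST signal of 6.53, an H19 signal of 12.03 and an IGF2 signal of 8.49.

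The genes whose source means were most like those of MEST were sought among the 2297 genes whose means spanned at least 2, by Pearson's r over the 13 sources. They were SOX11 (r = 0.93), GOLM1 (0.92), CEP70 (0.91), PAPOLG (0.91) and TAB1 (0.91). SOX11, a transcription factor of embryonic tissues, averaged 9.33 in ESCs, 8.59 in teratoma and 4.27 in skin cultures, with 7.13 in TE31. GOLM1, a Golgi membrane protein, averaged 11.01, 10.41 and 8.34 in the same classes. Low levels in skin follow from the choice by likeness to MEST and are given as a description.

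The genes most like H19 were PALMD (r = 0.95), ENPEP (0.93), PAWR (0.93), TRIB3 (0.92) and LOC699035 (0.92). PALMD, the gene of palmdelphin, ran from 3.71 in C3106 to 10.27 in TC31, with 5.48 in TE31 and 4.24 in M032. ENPEP, which encodes glutamyl aminopeptidase, ran from 3.98 in C3106 to 10.27 in TB31, with 6.86 in TE31 and 4.08 in M032. Their low levels in the sources where H19 was low follow from the choice by likeness.

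The 8 genes on either side of MEST, where measured, had narrower spans than MEST, which spanned 7.53 over the 13 sources. CEP41, the nearest measured gene on one side and a centrosomal protein, ran from 8.04 in M106p1 to 9.46 in TC38, with an r of 0.85 to MEST. COPG2, a coatomer subunit gene on the other side, ran from 6.43 to 7.25, with an r of 0.29. CPA4, a carboxypeptidase and itself listed as imprinted, ran from 6.05 in C3106 to 10.84 in TD31 and was called lower in ESCs than in teratoma fibroblasts (-2.83, SE 0.67, limma adjusted p = 0.00699). TMEM209 was called higher in ESCs than in skin (1.43, SE 0.23, limma adjusted p = 0.000692), but its next probe set gave 0.52. The imprinted transcription factor gene KLF14 spanned 0.39. Among the line 3106 and among the skin cultures, 11.6% and 8.77% of all genes were called. Of the 13 measured genes around MEST, CPA4 alone was called in each. Its call among skin cultures was lost with all 39 arrays (span 1.70, limma adjusted p = 0.0695).

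Around H19 and IGF2, the muscle troponin genes moved with them in TB31 and TD31. TNNI2 ran from 5.10 in C3806 to 8.63 in TB31 and was 7.98 in TD31, and it was at most 6.27 in all other sources. TNNT3, also a member of the muscle list, was 7.92 in TB31, 8.08 in TD31 and 6.27 in TE31. MRPL23, a mitochondrial ribosomal protein gene near H19, ran the other way, from 9.23 in TD31 to 10.66 in C3806, with an r of -0.76 to H19 and -0.86 to IGF2. On the far side of IGF2, TH spanned 0.49, ASCL2 0.45 and TSPAN32 0.41, and INS had no probe set of its own here. Of 20 measured genes of this neighbourhood, 6 were called among the line 3106 cultures (TNNI2, CTSD, PHLDA2, TNNT3, LSP1 and MRPL23). Over all genes the share was 11.6% there and 8.77% among the skin cultures. PHLDA2 was the only gene of this list called among the skin cultures, with a span of 1.27.

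**Figure D4:**
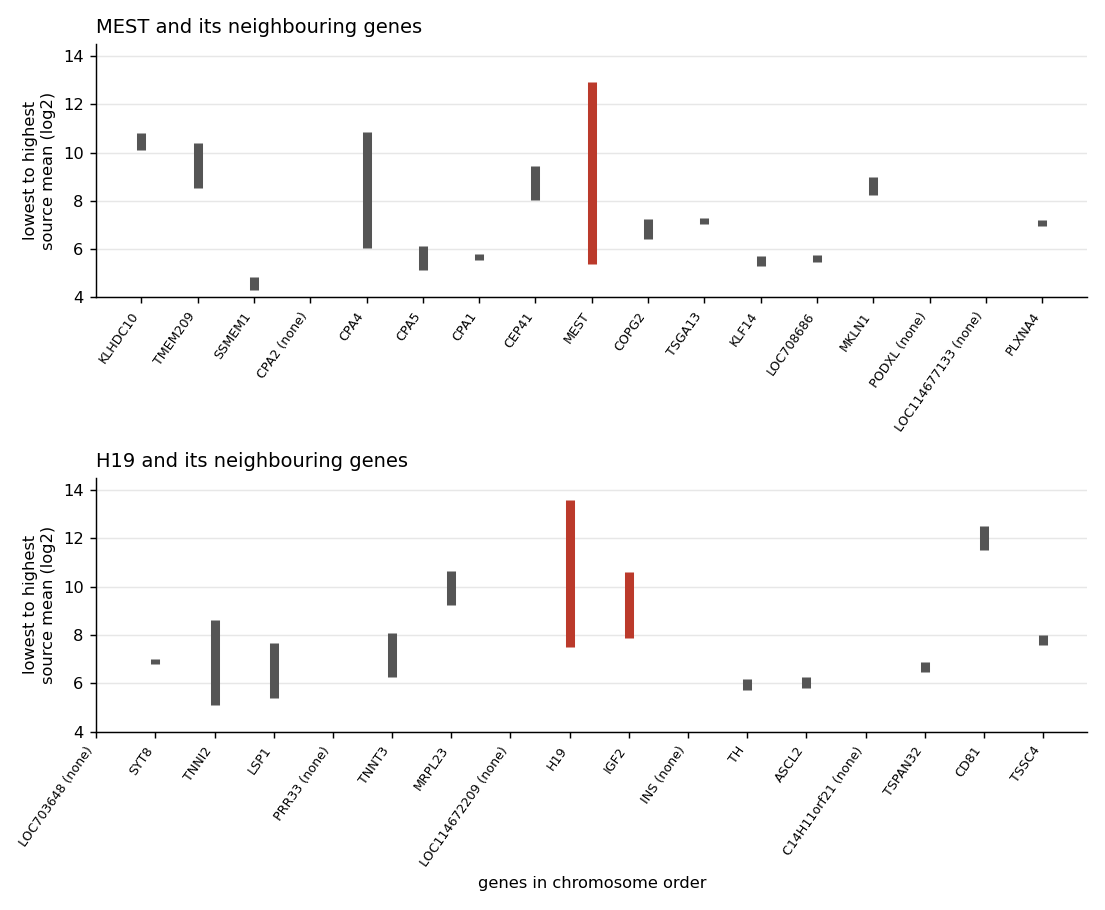
Lowest to highest source mean (log2, over 13 sources) of MEST and H19 and of the 8 genes on either side of each, in chromosome order; names marked none have no probe set of their own. The red bars of MEST, H19 and IGF2 span 7.53, 6.08 and 2.73, and the wide grey bars belong to CPA4 (4.79) and TNNI2 (3.53).

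Other genes listed as imprinted did not follow a common course. The arrays do not tell the parental copies apart, so which copy was transcribed in these cells was not measured. Of 12 measured genes listed as paternally expressed, 2 were higher and 3 lower in ESCs than in teratoma fibroblasts. The counts against skin fibroblasts were the same. Over all genes 6.28% were called higher and 8.17% lower against teratoma, and 10.2% and 9.76% against skin fibroblasts. The list's median difference was -0.06 and 0.05, against 0.02 and 0.03 over all genes. PLAGL1, a zinc finger factor known to bind at the H19 and IGF2 locus, was lower in ESCs by -4.76 (SE 0.48, limma adjusted p = 3.52e-05) than in teratoma and by -3.34 than in skin fibroblasts. DIRAS3 was lower by -3.09 and -2.93, and SGCE, a sarcoglycan, by -2.33 and -2.93. SNRPN was higher in ESCs by 1.55 and 1.94, and MAGEL2 by 2.01 and 2.55.

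None of the 12 genes listed as paternally expressed and none of the 17 listed as maternally expressed was called between teratoma and skin fibroblasts by limma. Over all genes 1.20% were called there, and 5 and 2 genes of these lists had an unadjusted p under 0.05. A count of 0 among so few genes lies near that background share. PLAGL1, DLK1 and MAGEL2, of the paternally expressed list, had all teratoma means above all skin means, with differences of 1.42, 2.15 and 0.53 and limma adjusted p-values of 0.0809, 0.144 and 0.119. Among the line 3106 cultures, where 11.6% of all genes were called, 4 of the 12 genes listed as paternally expressed were, or 3 with all 39 arrays. DLK1, a Notch-like membrane protein of fetal tissues, spanned 4.42, with 11.08 in TD31, 10.38 in TC31, 8.42 in TA31, 8.34 in TB31 and 6.66 in TE31. PEG3 spanned 3.17, with 8.42 in TB31 and 5.25 to 6.11 in the other 4. Among the line 3806 cultures, where 5.09% of all genes were called, the 3 called were PEG3, DIRAS3 and DLK1, which spanned 2.10, 1.41 and 1.37. With all 39 arrays DLK1 was not called there (limma F test adjusted p = 0.391), though its span was still 1.37. The added arrays are not of these cultures, but they enter the spread between arrays that the F test uses.

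Of 17 measured genes listed as maternally expressed, 2 were lower and none higher in ESCs than in teratoma fibroblasts, and again 2 against skin. Over all genes 8.17% and 9.76% were called lower, and counts of 2 lie near these shares. ATP10A was lower by -3.48 (SE 0.21) and -3.58 (SE 0.24) with limma adjusted p-values of 8.53e-07 and 2.17e-06, but its next probe set gave -0.10 and -0.08. TFPI2, a protease inhibitor, was lower in ESCs than in skin by -4.18 (SE 1.27, limma adjusted p = 0.0225). The call was lost without C3106 (adjusted p = 0.063), C3806 (0.0794) or M032 (0.0579). TFPI2 was 8.09 in TB31 and 7.96 in TD31 but 11.06 in TA31 and 11.94 in TE31. IGF2R, which clears IGF2 from the cell surface, spanned 2.03 among the line 3806 cultures, with 8.28 in TA38, 9.62 in TB38 and 10.32 in TC38.

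IGF2 acts through receptors that it shares with IGF1 and insulin. Of 14 other measured ligands, receptors and adaptors of this pathway, 1 was higher and 2 were lower in ESCs than in teratoma fibroblasts, with a median difference of -0.30 against 0.02 over all genes. The shares over all genes were 6.28% higher and 8.17% lower, and counts in so few genes lie near them. IGF1R, the receptor through which IGF2 signals, was 8.59 and 8.94 in the ESC lines, 8.77 to 9.76 in teratoma and 8.54 to 9.22 in skin cultures. IGF1 spanned 2.35 among the line 3106 cultures, with 9.59 in TB31, 9.31 in TD31 and 7.24 in TA31, and 1.97 among skin cultures, with 8.75 in M088. GRB14, an adaptor that restrains the insulin receptor, was higher in ESCs by 3.06 and 3.41. AKT1 was lower in ESCs than in teratoma fibroblasts by -1.12, but its next probe set gave 0.30, and the call was lost without C3106, where the difference was -0.96.

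PIK3R1, a regulatory subunit of phosphoinositide 3-kinase, was lower in ESCs by -2.12 and -3.31. It was also lower in teratoma than in skin fibroblasts by -1.19 (SE 0.23, limma adjusted p = 0.0263), where 0.545% of all genes were called lower and 0.658% higher. That call was lost with all 39 arrays (adjusted p = 0.0762) and without M032 (0.0879), M106p1 (0.0577), TA31 (0.0506) or TB31 (0.0511). Its source means were 5.66 to 6.22 in ESC, 7.54 to 8.41 in teratoma and 8.96 to 9.77 in skin sources, with no overlap.

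Of 11 measured IGF binding proteins and proteases of these, 5 were lower in ESCs than in teratoma fibroblasts, 6 than in skin fibroblasts and none was higher in either. Over all genes 8.17% and 9.76% were called lower. The median difference of the list was -1.38 and -2.25. IGFBP3, the main carrier of IGFs in blood, was lower by -4.14 (SE 0.34) and -4.72 (SE 0.40), and IGFBP4 by -2.53 and -2.93. IGFBP7 was lower by -6.65 and -6.12 and the protease HTRA1 by -3.26 and -3.20, but their next probe sets gave -0.52 and -0.78, and 0.05 and 0.10. IGFBP5 was lower in ESCs than in skin by -3.68 (SE 0.95). It was highest among teratoma cultures in TE31, at 10.98, where H19 and IGF2 were low, and 8.06 to 8.61 in the other 4 of that line. Among the line 3106 cultures, where 11.6% of all genes were called, 6 of the 11 were, or 4 with all 39 arrays. STC1, an inhibitor of the protease that cleaves IGFBP4, spanned 3.36 there.

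Of 10 measured genes for known regulators of H19 and IGF2 RNA, 3 were higher in ESCs than in teratoma fibroblasts and 4 than in skin fibroblasts. Over all genes 6.28% and 10.2% were called higher. PLAGL1, described above, was the only gene of the list called lower in either comparison, and the list's medians were 0.50 and 1.10. LIN28B, an RNA-binding protein that blocks let-7 processing, was higher by 6.61 and 6.58, but its next probe set gave 0.83 and 0.80. HMGA1 was higher by 2.22 and 2.18 and IGF2BP1, which binds IGF2 and H19 RNA, by 1.15 and 1.41. Its relative IGF2BP3 was 12.64 and 12.88 in ESCs, 10.92 to 11.85 in teratoma cultures, 9.34 in M032, 9.23 in M106p1 and 5.43 in M088. IGF2BP3 was called higher in ESCs than in skin (4.76, SE 0.94) and in teratoma than in skin fibroblasts (3.38, SE 0.70, limma adjusted p = 0.0342). Like MEST it was lower in all 3 skin cultures than in any other source, but M088, with the highest MEST of the skin cultures, had the lowest IGF2BP3. The teratoma call was lost with all 39 arrays (adjusted p = 0.0897) and without TA31 (0.063), TB31 (0.0607), TB38 (0.0681), TC31 (0.0548), TC38 (0.0719) or TD31 (0.0521).

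Of 19 measured enzymes and factors that set or keep methylation imprints, 6 were higher and 1 was lower in ESCs than in teratoma fibroblasts, and 7 were higher than in skin fibroblasts, with medians of 0.48 and 0.73. Over all genes 6.28% were called higher and 8.17% lower against teratoma, and 10.2% higher against skin fibroblasts. DNMT3B, a de novo methyltransferase, was higher by 5.33 and 6.15, DNMT3A by 3.00 and 4.33, and TET1, which oxidises methylcytosine, by 4.23 and 5.45. TET2 was the gene lower in ESCs than in teratoma fibroblasts (-1.64), and its next probe set gave -0.20. DNMT3A was also higher in teratoma than in skin fibroblasts by 1.33 (SE 0.20, limma adjusted p = 0.0117), with source means of 11.04 to 11.50 in ESC, 7.66 to 8.60 in teratoma and 6.69 to 7.16 in skin sources. Its next probe set gave 0.64 for that difference. TET3 was higher in teratoma than in skin by 1.58 (adjusted p = 0.0393), with 0.90 on its next probe set. That call was lost in 10 alternatives, with adjusted p-values from 0.0528, with each array centred on its own median, to 0.124 without M032. Without the other single cultures that ended it, M106p1, TA31, TB31, TB38, TC31, TC38 and TD31, the adjusted p was 0.0848, 0.0681, 0.0673, 0.0754, 0.0605, 0.0797 and 0.0601.

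**Figure D5:**
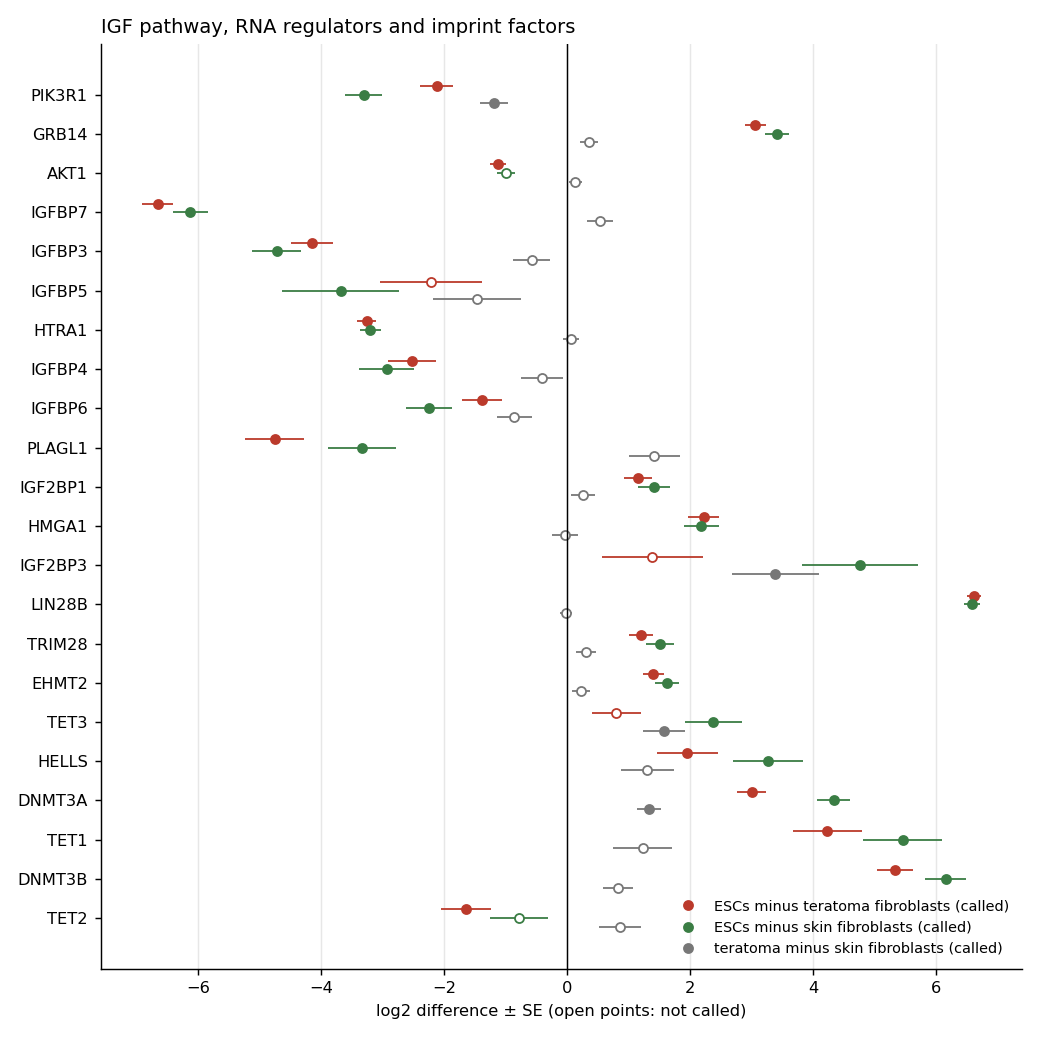
Log2 difference with its SE for called genes of the IGF pathway, of the RNA regulators and of the imprint factors, in ESCs minus teratoma fibroblasts, ESCs minus skin fibroblasts and teratoma minus skin fibroblasts, with filled points for called and open points for uncalled differences. Binding proteins and TET2 lie to the left in ESCs and the other imprint factors to the right. Of the differences between teratoma and skin fibroblasts 4 are filled, PIK3R1, IGF2BP3, TET3 and DNMT3A.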

How the data were processed

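The deposited table holds log2 signals of 52865 probe sets on 39 one-colour arrays, made by the authors with GCOS and RMA per the submitters' processing notes. Neither versions nor array batches or scan dates were stated in these sources. Gene names came from the platform annotation, under which 24956 probe sets had 1 gene name (controls left out), 361 had several and 27535 had none. Where a gene had several probe sets, the brightest on average over the 36 used arrays stood for it. Chromosomes and gene order came from the RefSeq table of T2T-MMU8v2.0.

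The arrays of a source were averaged. To the 13 resulting values limma 3.58.1 (R 4.3.3) fitted 5 classes (each ESC line, the teratoma cultures of each line, skin), with 8 residual degrees of freedom. Each ESC line is alone in its class and was assumed to vary like the cultures. Spread among cultures of a class was tested by limma's F test on arrays. Biological triplicates are claimed by the labels for each source, but nothing says that they came from separate cultures, so that F test measures only the spread between these arrays. Genes were called at a Benjamini-Hochberg adjusted p under 0.05 over all 14132 genes and a log2 difference or span of at least 1, and all tests were two-sided. The number of sources limits the precision.

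The genes, gene lists and tests were chosen with earlier results of these data known. Named were MEST, H19 and IGF2, up to 4 called genes per list and comparison with the largest difference, the 5 genes most like MEST and H19, and locus neighbours. Other genes were chosen after their values were seen, such as IGF1R. MEST, H19 and IGF2 were left out of the list counts. The next probe set is the brightest other one of a gene. Only the comparison of teratoma with skin fibroblasts was checked on simulated data, and the ESC comparisons and F tests were not. Alternatives were all 39 arrays, a further array left out, all probe sets, a filter on low values, centring, 3 classes, a random block, the array letter as a replicate block, and each source or array left out.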

Additional observations from a re-analysis of the deposited data

Results flagged for a closer look

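A culture was marked where its gap to the nearest other exceeded Dixon's 95% value among the 5 teratoma cultures of line 3106 or all 8. Of 116 such groups 17 were marked. Chance marks about 1 in 20, but H19 was chosen for its spread over these cultures, and PALMD, LOC699035 and SOX11 for their likeness to H19 or MEST. The other marked genes were called list genes with the largest differences or spans in the same data. The marks are therefore a description, and the count is not read against that share. TE31 stood apart in H19 among the cultures of its line, at 9.67 on MmuAffx.23.13.S1_s_at against 13.09 in the nearest culture, and at 8.37 on MmugDNA.16224.1.S1_s_at against 11.45. TE31 was also apart in PALMD (5.48), LOC699035 (12.05), IGFBP5 (10.98) and TMEM209 (8.78, in both sets of cultures), and among all 8 in SOX11 (7.13), TET2 (6.71) and TET3 (8.02). TC31 stood apart in HMGA1 (10.77, in both sets) and IGFBP1 (4.51), TD31 in IGFBP3 (11.51) and PLAG1 (5.78, in both sets), and TB31 in PEG3 (8.42).

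The left-out arrays labelled M106p1f and C3806c carried signals above every used array of their labelled class. The array labelled M106p1f gave 11.79 for MEST against at most 7.90 in used skin arrays. It gave 13.32, 9.90 and 12.11 for H19 on MmuAffx.23.13.S1_s_at, Mmu.16030.2.S1_a_at and MmugDNA.16224.1.S1_s_at, and 10.74 for IGF2. The array labelled C3806c gave 13 for MEST against at most 11.74 in used ESC arrays. It gave 12.65, 8.11 and 10.81 for H19 on the same probe sets, and 9.17 for IGF2.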

How the results depend on the processing

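No difference of MEST, H19 or IGF2, and no named gene's difference between classes, turned direction under the alternatives run on it. A span is never negative, so spans could not turn direction. Leaving out a culture from outside a comparison could not change its difference either. These alternatives did not put the named genes on their other probe sets. The next probe sets of AKT1 and HTRA1, among others, gave the opposite sign. The count of genes called between teratoma and skin fibroblasts, 170, was the least stable: 52 with all 39 arrays, 589 with the source as a random block on arrays, and 73 (without M032) to 392 (without TE31) with single sources left out. With all 39 arrays the calls were 465 among line 3806 cultures and 746 among skin cultures. None of the added arrays is of a line 3806 teratoma culture, but they enter the spread between arrays that the F test uses. Over all probe sets they were 3652 and 4816 for ESCs against teratoma and skin fibroblasts, 265 between the fibroblasts, and 2727, 1202 and 2093 among the line 3106, line 3806 and skin cultures, where more features were tested. With the array letter as a replicate block, which the labels do not tie to a shared batch, they were 1642, 725 and 1234.

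Leaving out single cultures moved the MEST span to 0.76 to 2.40 over skin and 1.60 to 2.45 over teratoma cultures. The H19 span moved to 0.99 to 4.41 and 2.26 to 3.91, and the IGF2 span over skin to 0.0050 to 0.34. On Mmu.16030.2.S1_a_at H19 in ESCs differed from teratoma fibroblasts by -2.04 and spanned 0.86 over skin. With all 39 arrays IGF2 in teratoma exceeded skin by 0.67 and spanned 1.09 over skin. The causes were not tested. The low-value filter, centring on array medians, the fit with 3 classes and leaving out the array C3806a kept every count they were run on within 1.5 times, and centring, run on the member levels as well, kept these within 1 SD between cultures. Of the named genes' results under alternatives, 3493 kept their call and 191 lost it. With 3 skin cultures and 2 ESC lines, and without detection calls, low levels and class means stay imprecise.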
